A study of Mus musculus with 4 samples.

Results

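The variable segments of the T cell receptor were examined as all rows of the deposited tables whose gene symbol starts with Trav or Trbv. These were 163 of 45777 rows, 128 of them Trav (alpha chain) and 35 Trbv (beta chain). The tables came from 4 SMART-seq libraries, full-length cDNA libraries made from 10000 to 20000 CD8 T cells out of mouse tumours, with 1 library per group. The MigRI and Klf4 groups were Pmel-I CD8 T cells, whose transgenic receptor recognises gp100, an antigen of melanocytes. They were transduced, either with MigRI as the vector or with Klf4, and given intravenously, 7 days after 300000 MC38-gp100 colon carcinoma cells, to Rag2 KO mice, which make no T or B cells of their own. Their GFP-positive cells were isolated from the tumours on day 15. The Control (WT) and Klf4 cKO groups were PD1-positive CD8 cells, endogenous to the host, taken on day 14 out of MC38 tumours in control mice or in mice labelled Klf4 cKO. The labels do not name the Cre driver, the deleted part of Klf4 or the ages of the mice, and they do not say whether tumours were pooled. With 1 library per group there was no replicate check, no spread between animals and no test. Every difference describes 1 library against another.

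A T cell assembles each receptor chain by joining 1 variable segment to a joining segment, with a diversity segment between them in the beta chain, and the joined exon is spliced to a constant region gene. A polyclonal population therefore uses many variable segments, while cells with a transgenic receptor all carry the same rearranged alpha and beta chains. The Pmel-1 receptor is described as V alpha 1 with V beta 13 in the older nomenclature, names that correspond to the Trav7 subgroup and to Trbv14. Each variable segment has a short leader exon and a longer V exon, which encodes the antigen-contacting domain up to the conserved cysteine that opens the third complementarity-determining loop.

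Trbv14 took 99.1% of all Trbv signal in MigRI and 98.6% in Klf4, and the pair Trav7d-5 and Trav7n-5 took 58.4% and 68.5% of all Trav signal. The endogenous libraries spread their signal over many segments. Among the beta segments, Trbv12-2, Trbv13-2 and Trbv16 led in Control (WT), and Trbv16 and Trbv13-2 in the library labelled Klf4 cKO. The V exons of the segments on which these results turn are shown first, as annotated in GENCODE vM21 on mm10. In the 4 Trbv exons the capitals mark the last in-frame TGT or TGC codon, counted in the annotated reading frame, which is where the germline part of the third loop starts. Trbv14 lies on the plus strand at chr6:41135320-41135616, Trbv16 at chr6:41151933-41152230, Trbv12-2 at chr6:41119072-41119364 and Trbv13-2 at chr6:41121539-41121832, all exonic and coding.
Trbv14: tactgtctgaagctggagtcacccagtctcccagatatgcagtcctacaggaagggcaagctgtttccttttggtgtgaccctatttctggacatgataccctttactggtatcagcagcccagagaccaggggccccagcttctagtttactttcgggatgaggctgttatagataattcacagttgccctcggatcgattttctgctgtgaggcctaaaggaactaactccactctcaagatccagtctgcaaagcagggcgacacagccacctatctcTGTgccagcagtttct
Trbv16: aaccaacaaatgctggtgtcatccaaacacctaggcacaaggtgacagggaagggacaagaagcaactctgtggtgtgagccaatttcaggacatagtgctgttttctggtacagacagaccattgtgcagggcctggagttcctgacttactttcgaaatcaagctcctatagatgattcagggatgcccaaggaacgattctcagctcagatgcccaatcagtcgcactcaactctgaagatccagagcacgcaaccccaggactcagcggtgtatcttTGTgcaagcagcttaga
Trbv12-2: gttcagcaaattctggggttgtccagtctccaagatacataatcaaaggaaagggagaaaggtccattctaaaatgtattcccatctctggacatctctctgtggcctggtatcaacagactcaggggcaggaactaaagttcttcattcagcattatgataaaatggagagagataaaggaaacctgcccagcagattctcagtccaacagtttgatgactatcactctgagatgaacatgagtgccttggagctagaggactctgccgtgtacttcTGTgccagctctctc
Trbv13-2: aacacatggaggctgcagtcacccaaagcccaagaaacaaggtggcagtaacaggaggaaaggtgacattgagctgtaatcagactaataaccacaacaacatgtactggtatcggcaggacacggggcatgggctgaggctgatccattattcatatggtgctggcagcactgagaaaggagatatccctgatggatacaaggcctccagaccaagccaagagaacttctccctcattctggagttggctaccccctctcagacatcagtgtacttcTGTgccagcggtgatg
The exons were 297, 298, 293 and 294 bases long, and 13, 14, 12 and 13 bases followed the marked codon. Over the whole annotated transcript, the nearest other segment to Trbv14 was Trbv13-3, at 79.2% identity over 283 aligned bases. The nearest to Trbv16 was Trbv4, at 77.1%, while Trbv12-2 was 88.3% identical to Trbv12-1 and Trbv13-2 was 90.6% identical to Trbv13-3.

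The alpha locus of this genome holds duplicated blocks, whose segments carry the letters d and n. Trav7d-5, at chr14:52836100-52836387, and Trav7n-5, at chr14:53147161-53147448, have the same V exon of 288 bases, with 0 mismatched bases, and the same annotated transcript. Their unlettered relative Trav7-5, at chr14:53531026-53531313, differs at 14 bases of that exon (95.1% identity). Capitals mark these 14 differing bases in each sequence; elsewhere in the exon a read cannot separate Trav7-5 from the pair.
Trav7d-5: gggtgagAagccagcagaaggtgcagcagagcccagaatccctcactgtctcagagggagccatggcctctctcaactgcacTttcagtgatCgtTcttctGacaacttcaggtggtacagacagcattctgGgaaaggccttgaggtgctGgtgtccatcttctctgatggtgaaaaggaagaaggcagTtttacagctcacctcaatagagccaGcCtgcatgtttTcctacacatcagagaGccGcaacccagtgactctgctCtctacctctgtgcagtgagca
Trav7-5: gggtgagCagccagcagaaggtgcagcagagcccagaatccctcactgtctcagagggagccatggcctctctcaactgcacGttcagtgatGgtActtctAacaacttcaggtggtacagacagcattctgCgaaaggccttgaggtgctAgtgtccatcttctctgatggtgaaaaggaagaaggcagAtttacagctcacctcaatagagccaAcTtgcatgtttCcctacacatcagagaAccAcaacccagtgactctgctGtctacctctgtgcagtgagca
In all, 36 Trav rows fell into 18 pairs whose members have at least 1 annotated transcript in common, letter for letter, which left 110 Trav units. Units can still be nearly the same: Trav7-2 and Trav7d-2 were 100% identical over 336 aligned bases and stayed separate because their ends differ. Of 44 cases in which such a pair was above 0 in a library, the authors' values of its 2 rows agreed within 1% in 22. Values of paired rows are therefore sums wherever this is stated, and how reads were divided between the copies is not given in the sources used here. Every Trbv row was distinct.

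All 163 symbols matched the annotation. The 128 Trav rows lie on chromosome 14, from 52427928 to 53977678, all on the plus strand, and 20 of them are annotated as pseudogenes. The 35 Trbv rows lie on chromosome 6, from 40891229 to 41558452, with 13 pseudogenes and with Trbv31 as the 1 segment on the minus strand. Of the Trav rows, 17 were listed at 0 in all 4 libraries, and of the Trbv rows 13. Averaged over the libraries, 71 Trav and 21 Trbv rows reached 1 TPM. TPM, a transcript share scaled for length, has the same total in each library. Median transcript lengths were 358 nucleotides for Trav and 366 for Trbv.

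The libraries were checked against markers before the segments were compared. Klf4 was at 8.69 TPM in MigRI, 26.05 in Klf4, 7.52 in Control (WT) and 9.28 in the library labelled Klf4 cKO, so the level of Klf4 does not check the cKO label. Cd8a was between 43.9 and 518 TPM and Cd4 between 0.108 and 0.813 TPM. Over 12570 genes that averaged 1 TPM or more, the median difference of log2(TPM + 1) was 0.79 for Klf4 over MigRI and 0.74 for Klf4 cKO over Control (WT). Values given relative to the median gene have this shift subtracted. Summed over 12 markers of T cells and the receptor complex, the level was 24590 TPM in MigRI, 5827 in Klf4, 7917 in Control (WT) and 18166 in the library labelled Klf4 cKO. This list includes the constant genes Trac, Trbc1 and Trbc2. Trbc1 and Trbc2 alone gave 18850, 5062, 1951 and 6542 TPM in the same order, so the sum does not measure T cells apart from the receptor. Over 7 macrophage markers the summed level was 1288 TPM in MigRI, 4973 in Klf4, 329 in Control (WT) and 1227 in the library labelled Klf4 cKO. Over 5 fibroblast markers it was 133, 1267, 26.9 and 242 TPM in the same order. All 7 macrophage and all 5 fibroblast markers were at least 2-fold higher in Klf4 than in MigRI, and 5 of 7 and 4 of 5 were so in the library labelled Klf4 cKO over Control (WT). Of all genes, 43.7% and 38.4% were that much higher in these comparisons. Relative to the median gene, 6 of 7 and 5 of 5 were higher in the first comparison (21.4% of all genes), and 4 of 7 and 2 of 5 in the second (12.4%). The part of these cells in the receptor differences was not tested. Sums over 4 CD4 T cell markers (2.62, 5.18, 12.54 and 6.202 TPM) and 3 NK cell markers (4.97, 5.75, 1.65 and 5.31 TPM) were lower than these in each library, in the same order. Of the immunoglobulin genes used as B cell markers, Ighm was at 66.7, 46.5, 4.76 and 18.1 TPM and Igkc at 51.5, 25.4, 34.6 and 9.36 TPM in the same order, so both were above 0 also in the cells from Rag2 KO hosts. Ms4a1, a surface marker of B cells, was listed at 0 in all 4 libraries. The source of the immunoglobulin signal was not tested. In bulk libraries, fewer T cells and less receptor RNA per T cell cannot be told apart.

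Total Trbv signal was 3259 TPM in MigRI, 960 TPM in Klf4, 271 TPM in Control (WT) and 1010 TPM for the library labelled Klf4 cKO. Total Trav signal was 447 TPM in MigRI, 100.2 TPM in Klf4, 326 TPM in Control (WT) and 646 TPM for the library labelled Klf4 cKO. Within each experiment the library with more Trbv signal thus also had more Trav signal. Trbv exceeded Trav in both Pmel-I libraries and in the library labelled Klf4 cKO, whereas Trav was the higher family in Control (WT). Klf4 was lower than MigRI by 4.47-fold for Trav (log2 difference of -2.15, or -2.94 relative to the median gene) and by 3.39-fold for Trbv (-1.76, or -2.55 relative to the median gene). In the other experiment, Trbv signal was 3.73-fold higher in the library labelled Klf4 cKO (log2 difference of 1.90, or 1.16 relative to the median gene). Trav signal was 1.98-fold higher there (0.99, or 0.25 relative to the median gene), under the 2-fold used for a call.

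The constant genes, which every rearranged chain needs, gave a second scale. Trac, the alpha constant gene, was at 1295 TPM in MigRI, 273.7 in Klf4, 556 in Control (WT) and 2164 in the library labelled Klf4 cKO. Trbc1 and Trbc2, the beta constant genes, summed to 18850 TPM in MigRI, 5062 in Klf4, 1951 in Control (WT) and 6542 in the library labelled Klf4 cKO. Trbv signal was 17.3%, 19.0%, 13.9% and 15.4% of the beta constant signal in the same order, a narrow range beside a total that varied from 271 to 3259 TPM. Trav signal was 34.6% of Trac in MigRI and 36.6% in Klf4, so that both families followed their constant genes in that comparison. It was 58.6% of Trac in Control (WT) and 29.9% in the library labelled Klf4 cKO. Trac was higher in the library labelled Klf4 cKO by 1.96 log2, and against it the Trav total was lower, by 0.97 log2.

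**Figure D1:**
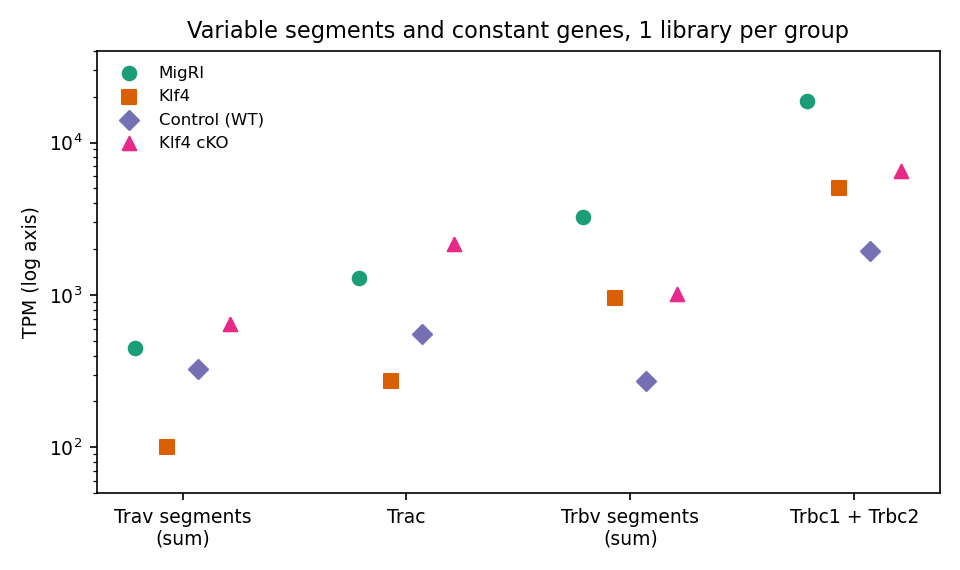
Level in TPM on a log axis of the summed Trav and Trbv segments beside their constant genes, with 1 point per library. In each of the 4 columns MigRI lies above Klf4, and the library labelled Klf4 cKO lies above Control (WT).

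Nearly all beta signal of the Pmel-I libraries lay on 1 segment. Trbv14, the segment of the transgenic beta chain, was at 3229 TPM in MigRI, 947 TPM in Klf4, listed at 0 in Control (WT) and at 7.43 TPM for the library labelled Klf4 cKO. Both Pmel-I libraries were high and both endogenous libraries low, with no value in between. Klf4 was 3.41-fold lower than MigRI for Trbv14, a log2 difference of -1.77, or -2.56 relative to the median gene. As a share of the beta constant signal Trbv14 was 17.1% in MigRI and 18.7% in Klf4.

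The rest of the beta family was low in transferred cells. Outside Trbv14, the MigRI library held 30.3 TPM of Trbv signal and the Klf4 library 13.6 TPM, which was 0.929% and 1.42% of the family. Trbv13-1 made up 79.4% of that remainder in MigRI, at 24.0 TPM, and 100% in Klf4, at 13.6 TPM. Trbv13-1 was 8.25 TPM in Control (WT) and 80.0 TPM for the library labelled Klf4 cKO, so that it was a used segment of endogenous cells too. In MigRI, Trbv19 followed at 4.05 TPM, and Trbv12-2, Trbv16 and Trbv23 were under 1 TPM. Of the 22 Trbv segments annotated as functional, 16 were listed at 0 in MigRI and 20 in Klf4, against 6 in Control (WT) and 2 in the library labelled Klf4 cKO. An effective number of segments, the inverse Simpson index, is the number of equally used segments that would give the same concentration. It was 1.02 in MigRI and 1.03 in Klf4 for Trbv.

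Endogenous cells used a broad beta repertoire. At least 1 TPM was reached by 17 Trbv rows in Control (WT) and by 20 in the library labelled Klf4 cKO. Of these, 16 were common to both (94.1% of the first set and 80.0% of the second). Only 22 of the 35 rows were above 0 in any library. With 20 of those passing in the library labelled Klf4 cKO, a large overlap says little about shared use. The effective number was 6.63 in Control (WT) and 8.87 in the library labelled Klf4 cKO. In Control (WT), 3 segments held 64.4% of Trbv signal, while the first 3 in the library labelled Klf4 cKO held 46.0%. The shares of the 2 endogenous libraries had 61.2% in common, counting for each segment the smaller of its 2 shares. Between MigRI and Klf4 the common part was 99.3%, and between a Pmel-I and an endogenous library it was at most 2.15%. Over the 35 rows the Spearman correlation of the endogenous libraries was 0.76, a description over segments that share 2 libraries, with 13 rows at 0 in both.

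Trbv16 was at 0.929 TPM in MigRI, listed at 0 in Klf4, at 53.6 TPM in Control (WT) and at 251 TPM for the library labelled Klf4 cKO. It took 19.8% and 24.8% of the family in the 2 endogenous libraries, the first rank in the latter. Trbv13-2 was listed at 0 in both Pmel-I libraries, at 58.5 TPM in Control (WT) and at 129.9 TPM for the library labelled Klf4 cKO. Its share was 21.6% and 12.9%. Trbv12-2 was at 0.934 TPM in MigRI, listed at 0 in Klf4, at 62.5 TPM in Control (WT) and at 41.8 TPM for the library labelled Klf4 cKO. Trbv12-2 was thus the leading beta segment of Control (WT), with 23.1%, and held 4.13% in the library labelled Klf4 cKO, where its level was 1.497-fold lower. Trbv12-2 and Trbv13-2 are neighbours, with starts 2.55 kb apart.

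**Figure D2:**
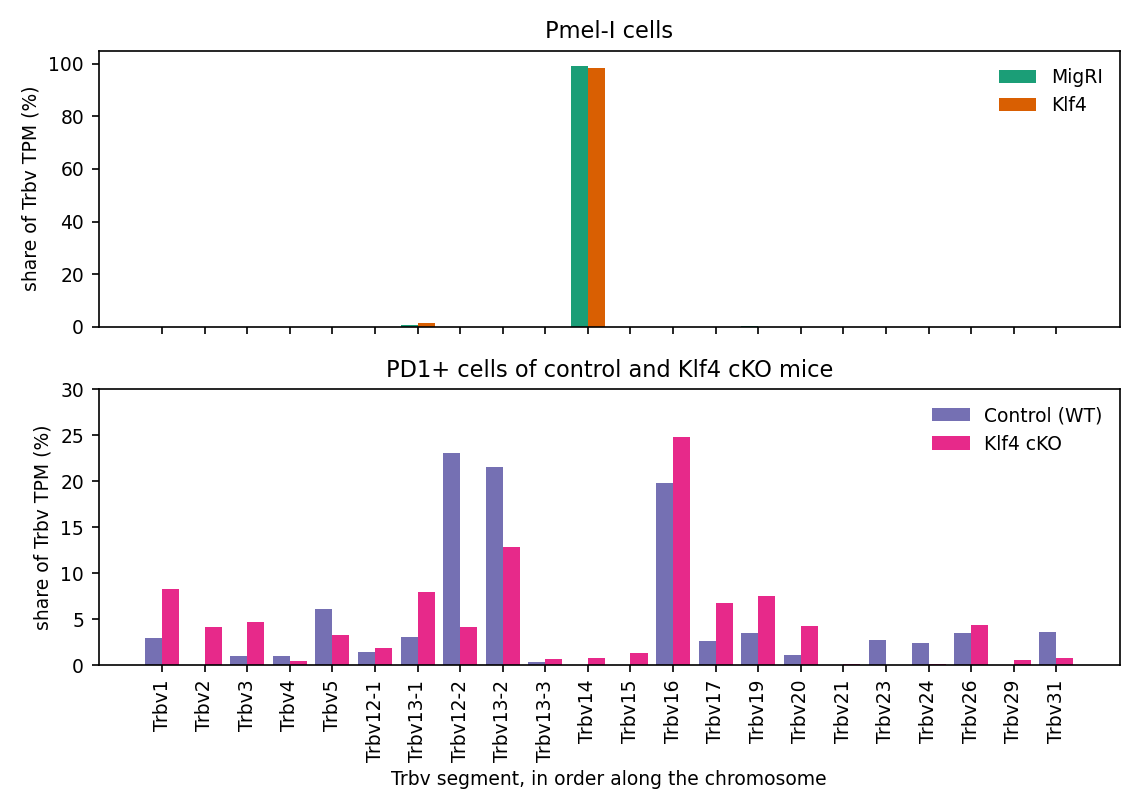
Share of Trbv TPM in percent for the 22 segments above 0 in any library, in chromosomal order, with MigRI and Klf4 above and Control (WT) and Klf4 cKO below (the y axes differ). Trbv14 holds 99.1% and 98.6% in the upper panel, and no segment passes 24.8% in the lower one.

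Several beta segments of low level in Control (WT) stood higher in the library labelled Klf4 cKO. Trbv1, the first beta segment on the chromosome, was at 8.04 and 84.1 TPM, 10.5-fold higher. Trbv3 was at 2.79 and 47.1 TPM, 16.9-fold higher, and Trbv20 at 3.07 and 43.3 TPM, 14.1-fold higher. Trbv2, next to Trbv3, was listed at 0 in Control (WT) and at 42.1 TPM for the library labelled Klf4 cKO. All 4 were listed at 0 in both Pmel-I libraries. Trbv17 was at 7.09 and 68.5 TPM and Trbv19 at 9.44 and 76.3 TPM in the 2 endogenous libraries. Trbv23 went the other way, at 7.38 TPM in Control (WT) and listed at 0 in the library labelled Klf4 cKO, and the pseudogene Trbv24 was at 6.65 and 1.38 TPM. Trbv31, the inverted segment, was at 9.86 and 8.28 TPM, and Trbv5 at 16.5 and 33.7 TPM. The first 3 segments of the locus, Trbv1 to Trbv3, together took 4.00% of Trbv signal in Control (WT) and 17.2% in the library labelled Klf4 cKO.

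Alpha segments of the Pmel-I libraries were led by the identical pair whose V exon is printed above. Trav7d-5 and Trav7n-5 together were at 261 TPM in MigRI, 68.6 TPM in Klf4, listed at 0 in Control (WT) and at 11.3 TPM for the library labelled Klf4 cKO. The 2 rows carried equal values in each library, 130.6 TPM each in MigRI and 34.3 TPM each in Klf4. Each row was 3.81-fold lower in Klf4 than in MigRI, a log2 difference of -1.90, or -2.69 relative to the median gene. Trav7-5, separated from the pair by the bases in capitals, was at 3.16 TPM in MigRI, listed at 0 in Klf4, at 3.01 TPM in Control (WT) and at 25.1 TPM for the library labelled Klf4 cKO. High signal in transferred cells was thus found on the pair and not on its close relative. The whole Trav7 subgroup, 13 rows, took 61.0% of Trav signal in MigRI, 68.5% in Klf4, 6.39% in Control (WT) and 13.5% in the library labelled Klf4 cKO.

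A second identical pair, Trav14d-1 and Trav14n-1, also stood out in transferred cells. Together they were at 47.4 TPM in MigRI, 21.4 TPM in Klf4, 4.06 TPM in Control (WT) and 2.55 TPM for the library labelled Klf4 cKO. Their share of the family was 10.6%, 21.3%, 1.25% and 0.394% in the same order. Trav14d-1 starts 19.8 kb downstream of Trav7d-5, with 2 rows between them, and Trav14n-1 starts 19.7 kb downstream of Trav7n-5, also with 2 rows between them. The rows between, Trav12d-1 and Trav13d-1 in one block and Trav12n-1 and Trav13n-1 in the other, were listed at 0 in both Pmel-I libraries. Both pairs together held 69.0% of Trav signal in MigRI and 89.9% in Klf4, against 1.25% in Control (WT) and 2.14% in the library labelled Klf4 cKO.

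Unlike the beta family, the alpha family of MigRI had a long tail. Outside the 2 pairs, 138.8 TPM were spread over 60 units above 0 in MigRI, with an effective number of 26.6, and this tail was 31.0% of the family. Of these units, 38 were at 1 TPM or more. Its first member, Trav12-2, was at 16.4 TPM in MigRI, listed at 0 in Klf4, at 3.23 TPM in Control (WT) and at 2.61 TPM for the library labelled Klf4 cKO. In Klf4 the tail held 10.1 TPM, 10.1% of the family, over 10 units above 0, of which 4 were at 1 TPM or more. Against Trac, the 2 pairs stood at 23.8% in MigRI and 32.9% in Klf4, while the tail stood at 10.7% and 3.70%. The pairs and the tail therefore did not keep 1 ratio between these libraries. Of the 40 units at 1 TPM or more in MigRI, leading pairs included, 75.0% also reached that level in Control (WT). In the library labelled Klf4 cKO 85.0% did. Of all 110 Trav units, 51 reached it in Control (WT) and 74 in the library labelled Klf4 cKO. In Klf4, 111 of 128 Trav rows were listed at 0, against 54 in MigRI. An exact 0 may be a failed estimate or a value below what the depth can show, and the depth is unknown.

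**Figure D3:**
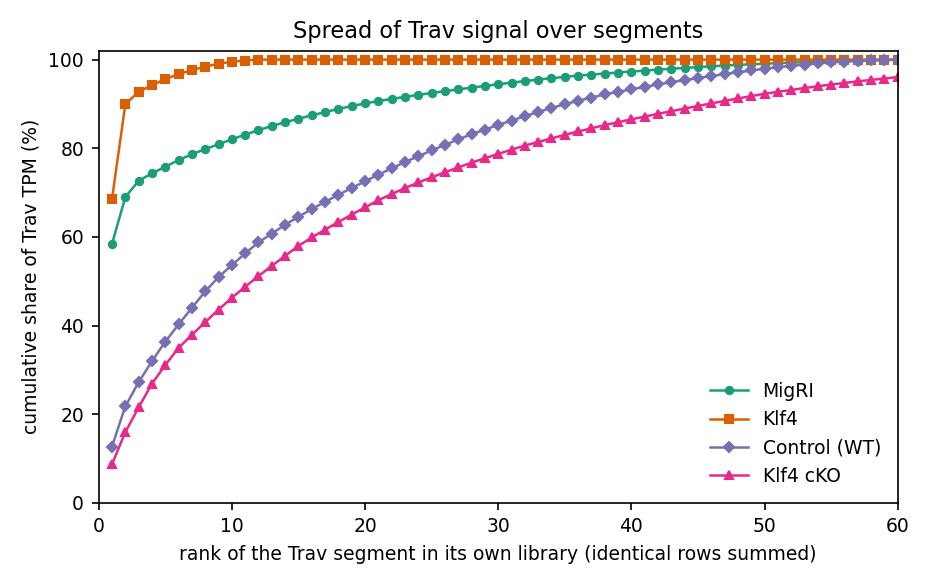
Cumulative share of Trav TPM in percent against the rank of the unit within its own library, with identical rows summed and 1 line per library. The first 2 units hold 69.0% in MigRI and 89.9% in Klf4, but 21.8% in Control (WT) and 16.0% in the library labelled Klf4 cKO.

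Endogenous cells spread their alpha signal over more segments than their beta signal, in a family of 110 units beside 35 Trbv rows. At 1 TPM or more were 55 Trav rows in Control (WT) and 84 in the library labelled Klf4 cKO. With identical rows summed, the effective number was 22.8 in Control (WT) and 31.1 in the library labelled Klf4 cKO, beside 2.81 in MigRI and 1.93 in Klf4. Row by row the numbers were 29.5, 34.8, 5.58 and 3.87. With subgroups summed, 23 for Trav and 31 for Trbv, the 2 families lay closer together in endogenous cells. The effective number was then 9.79 for Trav and 5.79 for Trbv in Control (WT). In the library labelled Klf4 cKO it was 9.92 and 7.26. It took 11 rows to reach 50% of the signal in Control (WT) and 13 in the library labelled Klf4 cKO, and 2 in each Pmel-I library. The common part of the 2 endogenous alpha repertoires was 48.0%. In both, 47 units reached 1 TPM, 92.2% of those in Control (WT) and 63.5% of those in the library labelled Klf4 cKO. Of all 110 units, 51 reached it in Control (WT) and 74 in the library labelled Klf4 cKO. Control (WT) shared 23.1% with MigRI and 5.77% with Klf4.

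The alpha leaders differed between the endogenous libraries. The pair Trav3d-3 and Trav3n-3 summed to 6.67 TPM in MigRI, was listed at 0 in Klf4, and was at 41.4 TPM in Control (WT) and 10.3 TPM for the library labelled Klf4 cKO. Trav14n-3 was at 2.28 TPM in MigRI, listed at 0 in Klf4, at 29.5 TPM in Control (WT) and at 2.26 TPM for the library labelled Klf4 cKO. Both were thus lower in the latter, 4.00-fold for the pair and 13.1-fold for Trav14n-3, and so was Trav5-4, at 17.7 and 5.98 TPM. Trav16n was at 4.94 TPM in MigRI, listed at 0 in Klf4, at 15.4 TPM in Control (WT) and at 56.1 TPM for the library labelled Klf4 cKO, where it was first with 8.68% of the family. The 3 Trav16 rows, Trav16, Trav16d-dv11 and Trav16n, summed to 33.4 and 119 TPM in the endogenous libraries, from 10.3% to 18.5% of the family. Trav16 is 98.5% identical to Trav16n over the transcript, so reads may have been divided among these rows. The pair Trav12d-2 and Trav12n-2 was at 4.07 and 47.0 TPM, 11.6-fold higher in the library labelled Klf4 cKO, and Trav15-1-dv6-1, which can also join the delta chain, was at 5.23 and 34.5 TPM, 6.60-fold higher. Trav4-3 and Trav5-1 were listed at 0 in Control (WT) and stood at 18.1 and 14.6 TPM in the other endogenous library.

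**Figure D4:**
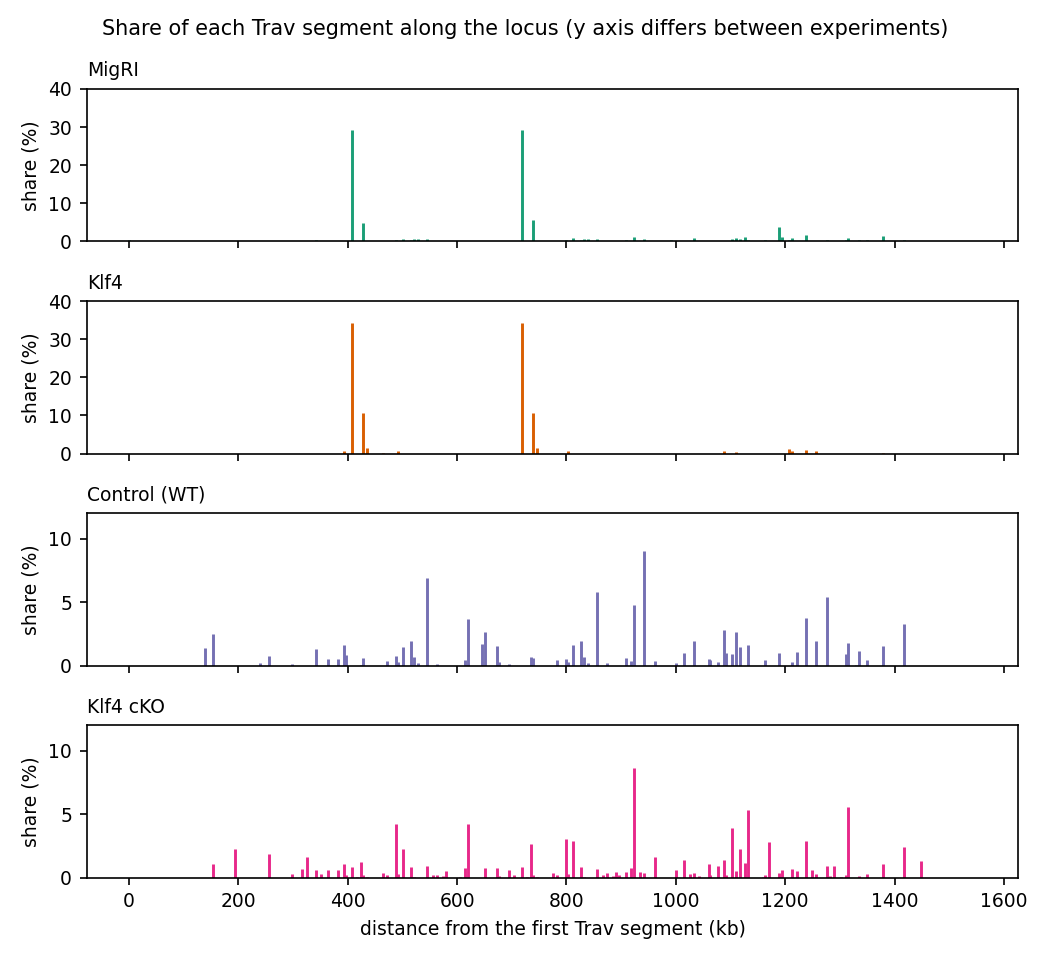
Share of Trav TPM in percent for each of the 128 rows against the distance in kb from the first Trav segment, with 1 panel per library (the y axes differ between the experiments). MigRI and Klf4 show the 2 copies of the leading pair, each followed by the Trav14 copy, while Control (WT) and Klf4 cKO have signal along most of the locus.

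Along the alpha locus, the signal of the Pmel-I libraries lay mostly in the stretch of the leading pairs. The locus was divided into 4 equal stretches from the first to the last Trav start, 1549 kb in all. The second stretch held 73.7% of Trav signal in MigRI and 94.4% in Klf4. It contains both copies of the leading pairs, which alone held 69.0% and 89.9%, so its share mostly repeats theirs. In Control (WT) the 4 stretches held 7.40%, 27.6%, 41.9% and 23.1% from the 5' end, while the library labelled Klf4 cKO had 10.1%, 25.5%, 42.2% and 22.3%. The distribution over the locus was thus similar in the endogenous libraries although their leading segments differed. The stretches hold 18, 41, 40 and 29 of the 128 rows in the same order, and the part of these row counts in the shares was not tested. Rows without a block letter, 55 of the 128, took 42.6% and 47.4% of Trav signal in the endogenous libraries, 19.4% in MigRI and 4.89% in Klf4. Pseudogenes, which cannot give a functional chain, took 2.44% of Trav signal in Control (WT), 1.14% in the library labelled Klf4 cKO, 0.520% in MigRI and were listed at 0 in Klf4. For Trbv the pseudogene shares were 2.45% in Control (WT) and 0.137% in the library labelled Klf4 cKO, all of it Trbv24, and all were listed at 0 in both Pmel-I libraries.

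Counts of segments past 2-fold were read against the same count over all genes. They are counts of rows, so the 2 rows of an identical pair enter separately. Of the 71 Trav rows at a mean of 1 TPM or more, 37 were at least 2-fold lower in Klf4 than in MigRI and 0 were higher, where 10.3% of all 12570 genes were lower and 43.7% higher. The 37 became 6 with a pseudocount of 5 and 19 among rows with a mean of 5 TPM or more. In 39 of the 71 rows the value in Klf4 was listed at 0 while that in MigRI was above 0. On the scale of the median gene 47 were lower and 0 higher, beside 23.6% and 21.4% of all genes. Of the 21 Trbv rows that passed, 2 were lower and 0 higher, and 15 were listed at 0 in both libraries, so the beta count rests on few rows. Those 2 were Trbv14 and Trbv19. The count was 1 with a pseudocount of 5, 5 with a pseudocount of 0.1 and 6 on the scale of the median gene. The median log2 difference was -1.02 over the 71 Trav rows and 0.79 over all genes.

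In the library labelled Klf4 cKO, 15 of 21 Trbv rows were at least 2-fold higher than in Control (WT) and 2 lower, where 38.4% of all genes were higher and 6.92% lower. After the shift of the median gene was taken off, the numbers were 14 and 3, beside 12.4% and 16.2% of all genes. The 2 lower rows were Trbv23 and Trbv24. Their count was 1 with a pseudocount of 5 and 0 among rows with a mean of 5 TPM or more. Of 71 Trav rows, 34 were higher and 12 lower, which became 24 and 18 on the scale of the median gene. With a pseudocount of 5 the Trav counts were 20 and 5, and among rows with a mean of 5 TPM or more 12 and 4. Of the 21 Trbv rows, 4 were listed at 0 in Control (WT) but not in the library labelled Klf4 cKO, and 1 the reverse. Of the 71 Trav rows, 12 were listed at 0 in Control (WT) only and 2 in the library labelled Klf4 cKO only, between these 2. Their median log2 difference was 0.77, beside 0.74 over all genes, while that of Trbv was 2.20. By their medians, the alpha segments were thus near the middle of all genes and the beta segments above it in these libraries. Single alpha rows differed in both directions, with the 34 higher and 12 lower given above.

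**Figure D5:**
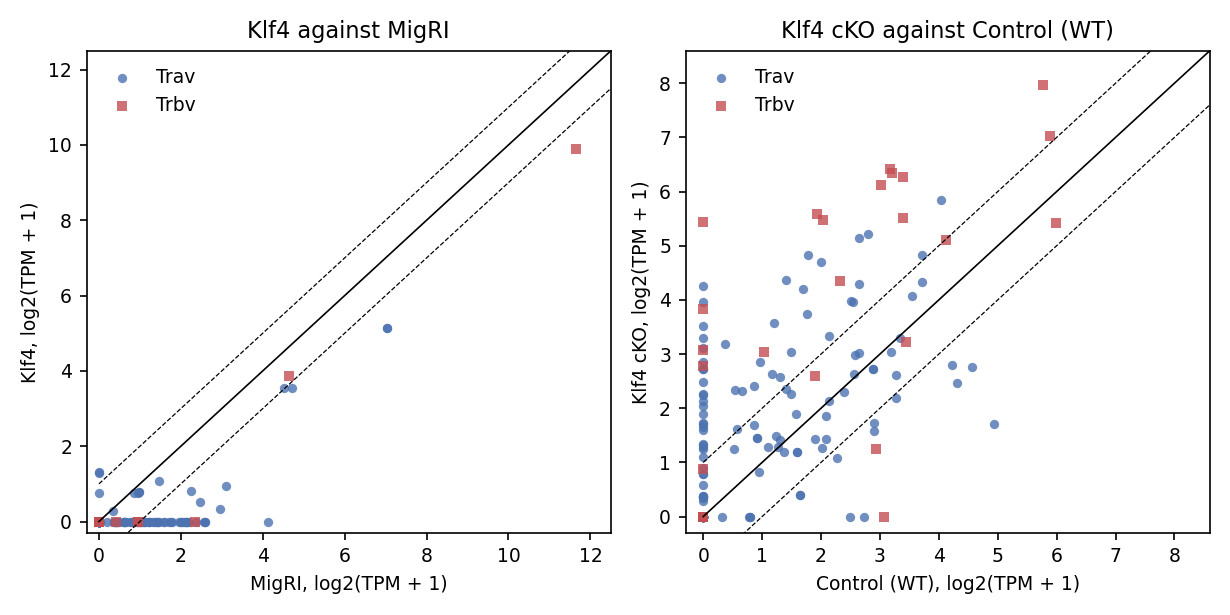
Level of each Trav and Trbv row as log2(TPM + 1), with MigRI against Klf4 on the left and Control (WT) against Klf4 cKO on the right; the solid line marks equal levels and the dashed lines a 2-fold difference. On the left most points lie on the floor at 0 in Klf4 and Trbv14 is at the upper right, and on the right 15 of 21 Trbv rows at a mean of 1 TPM or more lie above the upper dashed line.

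Joining segments, which were not used to choose the rows, were also concentrated on few rows in the Pmel-I libraries. Trbj1-6 was at 5462 TPM in MigRI, 1745 TPM in Klf4, 28.1 TPM in Control (WT) and 112 TPM for the library labelled Klf4 cKO, which was 85.2%, 92.9%, 7.13% and 5.54% of the 14 Trbj rows. Traj40 was at 272 TPM in MigRI, 76.2 TPM in Klf4, listed at 0 in Control (WT) and at 2.68 TPM for the library labelled Klf4 cKO. It took 55.2% of the 60 Traj rows in MigRI and 60.9% in Klf4, close to the 58.4% and 68.5% of the leading Trav pair. Traj12 followed with 18.9% and 18.6%. The effective number of Traj rows was 2.89 in MigRI, 2.42 in Klf4, 7.14 in Control (WT) and 12.4 in the library labelled Klf4 cKO. In endogenous cells Trbj2-7 led with 23.8% in Control (WT) and 24.2% in the library labelled Klf4 cKO, and the effective number of Trbj rows was 7.06 and 7.89, beside 1.37 in MigRI and 1.16 in Klf4. The first Traj row was Traj18 in Control (WT), with 26.4%, and Traj15 in the library labelled Klf4 cKO, with 13.9%. Levels of the very short joining rows were not compared with those of the variable rows.

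Other genes of the receptor were taken from a list of 19 that covers rearrangement, the receptor complex and its first signalling steps. Rag1, Rag2 and Dntt, which carry out rearrangement in the thymus, were listed at 0 in all 4 libraries. Of the 15 genes at a mean of 1 TPM or more, 12 were at least 2-fold lower in Klf4 than in MigRI and 0 higher, beside 10.3% and 43.7% of all genes. In the library labelled Klf4 cKO, 11 were higher than in Control (WT) and 0 lower, beside 38.4% and 6.92% of all genes. On the scale of the median gene these became 5 and 2, beside 12.4% and 16.2% of all genes. Cd8b1, the beta chain of the coreceptor, was at 365 and 83.4 TPM in MigRI and Klf4 and at 252 and 1270 TPM in Control (WT) and the library labelled Klf4 cKO. Cd3e, a signalling chain of the complex, was at 107.7 and 38.0 TPM, and at 149 and 389 TPM. Cd3d was at 1230 and 56.0 TPM, and at 2580 and 1936 TPM. Zap70 was at 17.4 and 7.71 TPM, and at 43.3 and 34.3 TPM. Cd3d and Zap70 were the 2 genes lower in the library labelled Klf4 cKO on the scale of the median gene. The size of the difference varied: in Klf4, Cd3d was 21.9-fold lower than in MigRI and Cd3e 2.83-fold lower. Both family totals of the variable segments lay in the same direction as most of this list in each comparison.

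Delta segments were below the Trav total in each library. The 6 Trdv rows of the delta chain summed to 24.8 TPM in MigRI, 1.02 TPM in Klf4, 12.2 TPM in Control (WT) and 10.4 TPM for the library labelled Klf4 cKO. Trdc, the delta constant gene, was at 15.8, 3.69, 0.338 and 5.61 TPM in the same order. Over 6 markers of gamma delta T cells the sums were 50.7, 3.69, 16.8 and 141 TPM, with Sox13 listed at 0 in all 4 libraries. Tcrg-C2, a gamma constant gene, made up most of the last value, at 122.5 TPM for the library labelled Klf4 cKO, and was at 9.67 TPM in MigRI, listed at 0 in Klf4 and at 11.6 TPM in Control (WT). Whether cells of this class contributed to the Trav signal was not tested.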

How the data were processed

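Cells went into TRI Reagent, and cDNA was made with the SMART-seq v4 kit, per the labels' protocols. The submitters' processing notes name Trimmomatic, HISAT2, StringTie, edgeR and build mm10. Their versions, their roles, the annotation and the handling of reads across V and J joints are not given in the sources used. The authors deposited 1 table of TPM for each library. Because TPM holds no read depth, counting error is unknown.

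In 1 table, of Control (WT), 26 symbols had become dates; 22 were mapped back by name and 4 genes left out, which left 45773. None was a variable segment. Shares, totals, effective numbers and differences of log2(TPM + 1) were computed with pandas 2.3.3, and identities with Biopython 1.88. A pseudocount of 1 was used, a difference of 1 log2 was called, and counts used rows with a mean of at least 1 TPM. The calls and indices were tested on simulated data with an assumed depth and with changes only in genes at 5 TPM or more. Such data cannot check calls on segments at low levels or at 0. Named segments were the 5 highest of each family in each library, Trbv14 and the main Trav7 rows, the 5 largest and smallest differences at 20 TPM or more, and those at 0 in 1 library and 20 TPM or more in another. Other segments and genes were named after their values were seen. The rows, lists and rules were chosen with earlier results of these data known.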

Additional observations from a re-analysis of the deposited data

How the results depend on the processing

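Of 124 alternative values, 86 kept their direction and their side of 2-fold, or moved by less than 1.5 times. Against the constant genes the log2 difference of Klf4 over MigRI became 0.083 for Trav and 0.13 for Trbv, and that of Klf4 cKO over Control (WT) became -0.97 for Trav and 0.15 for Trbv. Reversals there follow from the divisor. Trav segments lower in Klf4 numbered 37, but 6 with a pseudocount of 5 and 19 at a mean of 5 TPM or more. Trav segments higher in Klf4 numbered 0, but 1 with a pseudocount of 0.1 and 2 with no filter. In Klf4 cKO over Control (WT), 34 higher Trav segments became 20 with a pseudocount of 5 and 12 at a mean of 5 TPM, and 12 lower ones became 5 and 4. The 2 Trbv segments lower in Klf4 became 5 with a pseudocount of 0.1, 1 with a pseudocount of 5 and 6 relative to the median gene. The 2 lower in Klf4 cKO became 1 with a pseudocount of 5 and 0 at a mean of 5 TPM. With identical rows summed, an alternative chosen after seeing the data, the effective number of Trav was 2.81 in MigRI and 1.93 in Klf4, and the highest Trav share 58.4% and 68.5%. With subgroups summed, the effective numbers were 2.48 in MigRI, 1.92 in Klf4, 9.79 in Control (WT) and 9.92 in Klf4 cKO, and the highest shares 61.0%, 68.5%, 19.3% and 18.5%. The exponential of the Shannon entropy gave 13.04 in MigRI and 52.8 in Klf4 cKO. Detection at 0.1 TPM counted 73 Trav segments in MigRI, 17 in Klf4 and 6 Trbv segments in MigRI. At 5 TPM it counted 8 Trav segments in MigRI, 4 in Klf4, 21 in Control (WT) and 39 in Klf4 cKO. Beyond what these settings are built on, the cause was not tested.

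Leaving out a replicate was not run, with 1 library per group. No paired analysis was possible because each group has 1 library. The 2 experiments differ in host, tumour line, sort and day, which cannot be told apart from the kind of cell. Low and absent values cannot be given an error, since depth is unknown.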
